A study of Mus musculus with 4 samples.

Results

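The integrins and laminins of femoral marrow stroma were read from a bulk RNA sequencing count table of 17230 rows. All rows whose symbol begins with Itga, with Itgb and a digit, or with Lama, Lamb or Lamc and a digit were taken, which gave 41 rows, and all 41 matched a gene of the GENCODE M21 annotation. They were 27 integrin subunits, 10 laminin chains and 4 genes that carry an integrin-like symbol but encode integrin-binding or unrelated proteins (Itgb1bp1, Itgb1bp2, Itgb1bp3 and Itgb3bp). The 27 subunits were separated by the cells known to use them into 8 leukocyte, 2 platelet, 11 mesenchymal and 2 epithelial subunits and 4 that blood and mesenchymal cells share.

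Cells were sorted from mouse femurs at postnatal day 21, after a single tamoxifen pulse at embryonic day 12.5. One group carried Cxcl12(GFP/+); Hes1(CreER/+); R26R(tdTomato/+) and is called Hes1-derived here, with replicates 1 and 3. The other carried Cxcl12(GFP/+); Fgfr3-iCreER; R26R(tdTomato/+) and is called Fgfr3-derived, with replicates 2 and 3. Every library thus came from mice with GFP at 1 Cxcl12 allele, tdTomato as a permanent lineage mark and tamoxifen exposure, and the groups differ in the gene that drives the Cre. The Cre insertion at Hes1 is found in the first group only, so the Cre allele and the cell origin cannot be told apart. The series sets perichondrium-derived against chondrocyte-derived reticular cells rich in CXCL12 (CAR cells), a stromal population of the marrow that maintains blood precursors. Pairs of values below are given for Hes1-derived replicates 1 and 3, in that order, against Fgfr3-derived replicates 2 and 3. The cell type labels give GFP+tdTomato+ cells, while the extraction text names a tdTomato sort alone. Whether a library was 1 animal or a pool is not given in the labels used here, so the p-values measure the spread between these libraries, which may be in part technical.

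Integrins are cell surface receptors made of an α and a β subunit. They bind matrix proteins or counter-receptors on other cells and couple them to actin through talin, kindlin and the integrin-linked kinase complex. The β2 subunit (Itgb2) and its α partners αL (Itgal), αM (Itgam), αX (Itgax) and αD (Itgad) are restricted to leukocytes, and β7 (Itgb7) pairs with α4 (Itga4) or αE (Itgae) on lymphocytes and mast cells. The αIIb subunit (Itga2b) pairs with β3 (Itgb3) on platelets, while β3 also pairs with αv (Itgav) on osteoclasts and mesenchymal cells. Collagen is bound by α1, α2, α10 and α11 with β1, fibronectin by α5 with β1, tenascin and osteopontin among others by α9 with β1, and vitronectin by αv with β3 or β5. Laminins are trimers of an α, a β and a γ chain that polymerise into basement membranes, and the laminin α4 chain surrounds vessels, fat cells and marrow sinusoids.

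The RefSeq table (build GRCm38.p6) held the promoter of 26 of the 41 genes. The 250 bases before the RefSeq start of 4 of them are printed because Itgam and Itgb7 were among the subunits with positive log2 fold changes and Itgb5 and Itga11 among those with negative ones. Capitals mark matches on either strand of GAGGAA, a core of the sites of the myeloid factor PU.1, and of GGGCGG, the GC box.
Itgam: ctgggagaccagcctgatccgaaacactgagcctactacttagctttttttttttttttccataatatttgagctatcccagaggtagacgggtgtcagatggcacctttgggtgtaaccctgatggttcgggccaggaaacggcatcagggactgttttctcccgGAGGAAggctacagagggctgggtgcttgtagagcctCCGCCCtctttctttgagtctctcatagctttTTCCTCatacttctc
Itgb7: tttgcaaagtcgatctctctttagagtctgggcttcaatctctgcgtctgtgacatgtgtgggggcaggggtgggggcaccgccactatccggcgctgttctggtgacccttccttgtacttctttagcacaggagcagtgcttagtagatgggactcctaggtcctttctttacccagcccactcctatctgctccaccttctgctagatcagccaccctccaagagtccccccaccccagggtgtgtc
Itgb5: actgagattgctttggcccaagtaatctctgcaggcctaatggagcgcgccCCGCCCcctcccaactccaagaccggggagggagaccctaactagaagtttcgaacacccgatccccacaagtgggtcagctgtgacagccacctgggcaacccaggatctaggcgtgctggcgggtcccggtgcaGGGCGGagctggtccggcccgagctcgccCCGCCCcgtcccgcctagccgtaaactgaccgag
Itga11: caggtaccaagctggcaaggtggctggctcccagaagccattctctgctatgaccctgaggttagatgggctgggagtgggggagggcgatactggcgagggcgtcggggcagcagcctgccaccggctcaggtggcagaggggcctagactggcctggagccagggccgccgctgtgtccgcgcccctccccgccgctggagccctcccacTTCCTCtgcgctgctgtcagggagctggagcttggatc
The windows are chr7:128062390-128062639 (plus strand), chr15:102231936-102232185 (minus strand), chr16:33829415-33829664 (plus strand) and chr9:62677605-62677854 (plus strand). The Itgam window held GAGGAA with its first base 84 bases before the start and again on the other strand 15 bases before it, with a GC box at 47 bases. The Itgb5 window held 3 GC boxes, 199, 63 and 34 bases before the start, and no GAGGAA. Itga11 had 1 GAGGAA, on the other strand 38 bases before the start, and the Itgb7 window held neither motif. GAGGAA was found in 23.3% and GGGCGG in 32.7% of all 32851 promoters in windows of the same length. Counting the first listed start of a gene, GAGGAA stood in 2 of 4 leukocyte subunits, 3 of 10 mesenchymal subunits and 5 of 5 laminin chains with a promoter. These matches describe the letters only, and binding was not measured.

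The 4 libraries held 22745128 to 26804832 counted reads, and the 41 rows took between 0.244% and 0.361% of them. Blood-cell RNA was present in all 4 libraries. All 12 pan-leukocyte markers were higher in both Hes1-derived libraries than in both Fgfr3-derived ones (29.8% of all tested genes were so). Of the 12 markers, 8 passed the test as higher (5.24% of all tested genes). Their summed level was 6808 and 7880 against 1885 and 4099 CPM (read counts scaled to library size with the trimmed mean of M-values, TMM). None of these 12 markers was at 0 in any library. The 20 reticular stroma genes summed to 17565 and 11255 CPM against 26156 and 16777 CPM. Of the 20, 2 were called lower, where 6.56% of all tested genes were (median log2 fold change of the 20 −0.59). The labelled stromal cells were therefore found together with leukocyte RNA. In bulk samples, fewer cells of a type and less RNA per cell cannot be told apart.

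The comparison asks how reticular cells of the 2 fetal origins differ in their matrix receptors and basement membrane chains. The mesenchymal subunits αv, β5, α1, α5, α9 and α11 and the laminin chains α4, β1 and β2 were lower in the Hes1-derived libraries, by 2.12-fold to 4.24-fold, and so were β1 and β3. The α4 and β7 subunits, which pair with each other on lymphocytes, were higher by 3.56-fold and 3.13-fold. Of the 41 rows, 36 passed the low-count filter and were tested. By the quasi-likelihood F test of edgeR, adjusted after Benjamini and Hochberg for 14330 genes, 2 were higher (background 5.24% of tested genes) and 11 lower (background 6.56%). Over all tested genes 11.8% were called in either direction, and the median log2 fold change was −0.02, against −0.61 over the 36 members. Both Hes1-derived libraries lay below both Fgfr3-derived libraries for 19 members and above them for 10, where 32.1% and 29.8% of all tested genes did so.

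**Figure D1:**
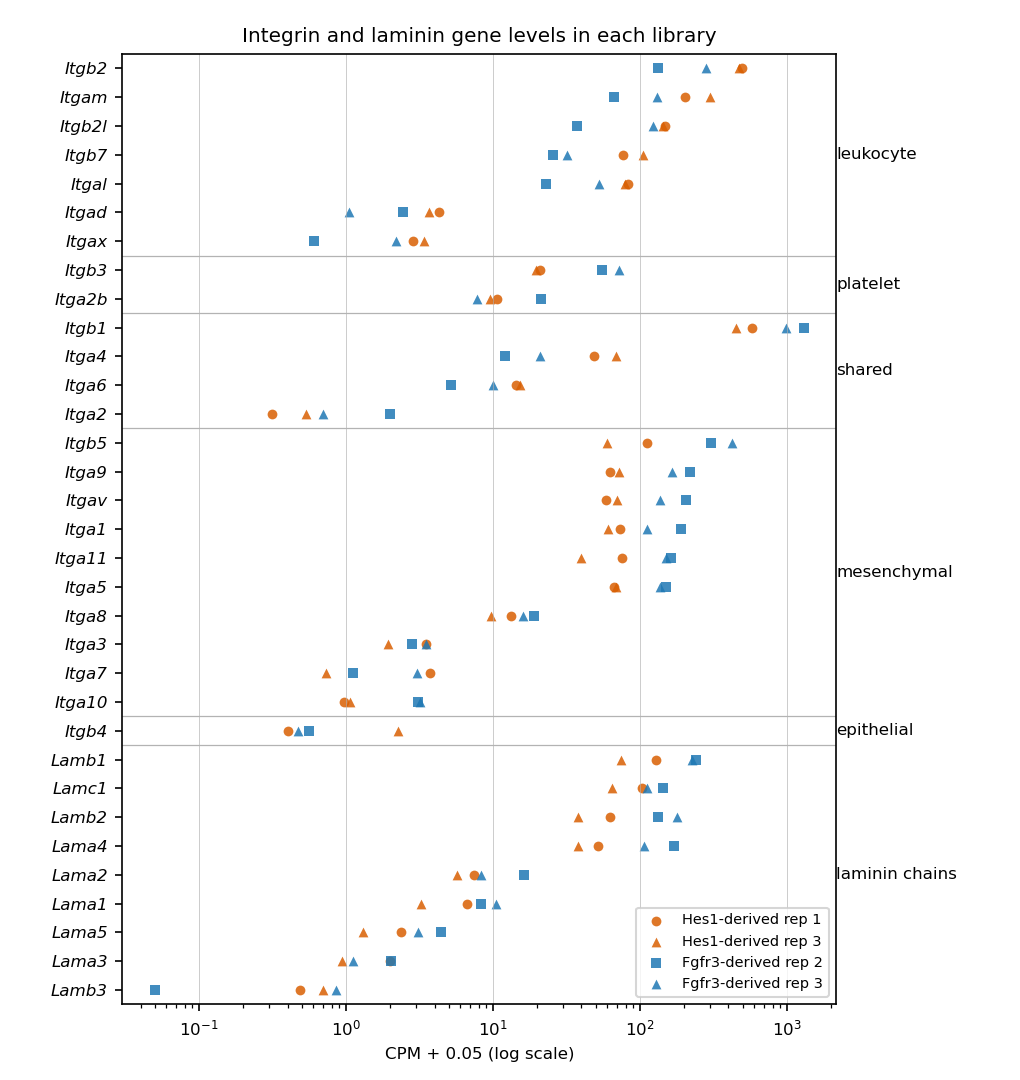
CPM of the tested integrin subunits and laminin chains, without 1 chain that is not reported here, in the 4 libraries (log axis, with 0.05 added so that a library with 0 reads can be drawn). Orange points are Hes1-derived and blue points Fgfr3-derived libraries; the 7 leukocyte subunits lie to the right in orange and the most abundant mesenchymal subunits and laminin chains to the right in blue.

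**Figure D2:**
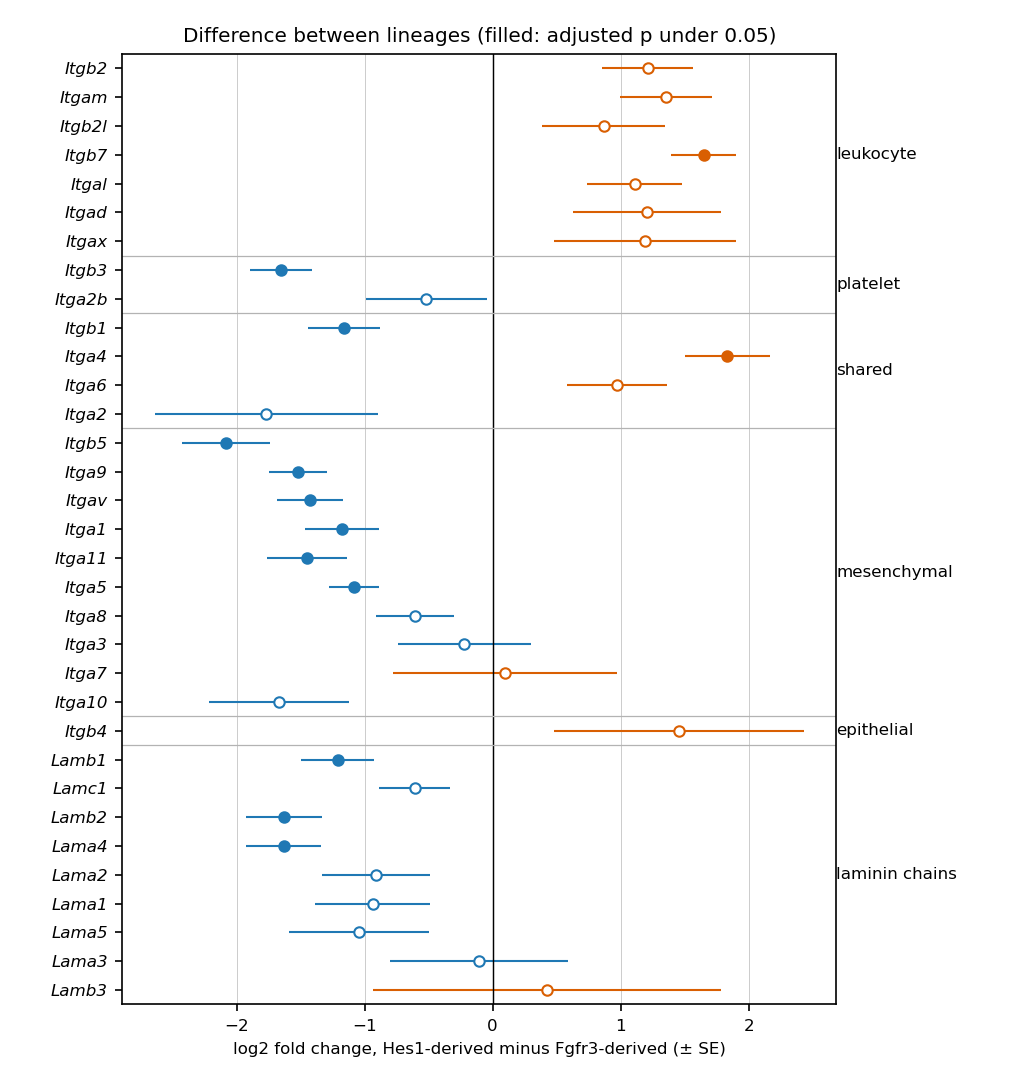
Log2 fold change (Hes1-derived minus Fgfr3-derived) with its SE for the same genes, grouped by class. Filled points passed an adjusted p of 0.05 (edgeR); they are Itgb7 and Itga4 on the positive side and 11 genes on the negative side.

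Leukocyte subunits had positive log2 fold changes throughout, but 1 of the 7 tested passed. Itgb7, on chromosome 15 (102215995 to 102231944, minus strand), stood at 76.02 and 104.9 CPM against 25.7 and 32.1 CPM. The groups did not overlap, and the log2 fold change was 1.65 ± 0.25 (SE, edgeR adjusted p = 0.018). Its call ended without Hes1-derived replicate 3 (log2 fold change 1.40, edgeR adjusted p = 0.051).

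Itgb2, the common β chain of leukocytes, had 491 and 469 CPM against 133 and 282 CPM. It was the most abundant leukocyte subunit and did not pass (1.21 ± 0.36, edgeR adjusted p = 0.068). Itgam, the αM subunit of neutrophils and macrophages on chromosome 7 (128062640 to 128118491, plus strand), had 201 and 300.3 CPM against 66.1 and 130.1 CPM and did not pass (1.35 ± 0.36, edgeR adjusted p = 0.053). In both genes the Hes1-derived libraries were above both Fgfr3-derived libraries, with Fgfr3-derived replicate 2 the lowest. The gene Gm49368 shares 68.7% of the Itgam exon length on the same strand, so the split of reads between them is uncertain.

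Itgb2l, a β2-like chain of neutrophils, stood at 147 and 144 CPM against 37.2 and 123 CPM, so that Fgfr3-derived replicate 3 came close to the Hes1-derived libraries (0.87 ± 0.48, edgeR adjusted p = 0.28). Itgal, the αL subunit of lymphocytes, stood at 83.4 and 79.3 CPM against 23.02 and 52.4 CPM (1.11 ± 0.37, edgeR adjusted p = 0.093). Itgad and Itgax, the αD and αX subunits of macrophages and dendritic cells, had 0.552 to 4.22 CPM across libraries and adjusted p-values of 0.21 and 0.31. Itgae, the αE subunit of mucosal lymphocytes, had 1 and 4 reads against 3 and 13 reads and was not tested, so that α4 was the only partner of β7 with more than a few reads. All 7 tested leukocyte subunits were higher in both Hes1-derived libraries than in both Fgfr3-derived ones (background 29.8%), with a median log2 fold change of 1.21. Without Fgfr3-derived replicate 3, 5 of them passed (Itgb7, Itgam, Itgb2, Itgal and Itgb2l), and without Hes1-derived replicate 3 none did. DESeq2 called 4 leukocyte subunits higher, adding Itgam, Itgb2 and Itgal, where it called 1429 of all 14330 tested genes higher.

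Set against the pan-leukocyte markers of the same library, the leukocyte subunits lay close together and slightly lower in the Hes1-derived libraries. For every 100 reads of the 12 markers there were 14.8 and 14.03 reads of the 8 subunits against 15.3 and 15.2, without overlap. Per 1000 marker reads Itgb2 had 72.1 and 59.6 against 70.5 and 68.7, and Itgam 29.5 and 38.1 against 35.1 and 31.7. The groups overlapped for both of these genes, as they did for Itgb7 (11.2 and 13.3 against 13.7 and 7.82). This ratio was chosen after the values were seen.

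**Figure D3:**
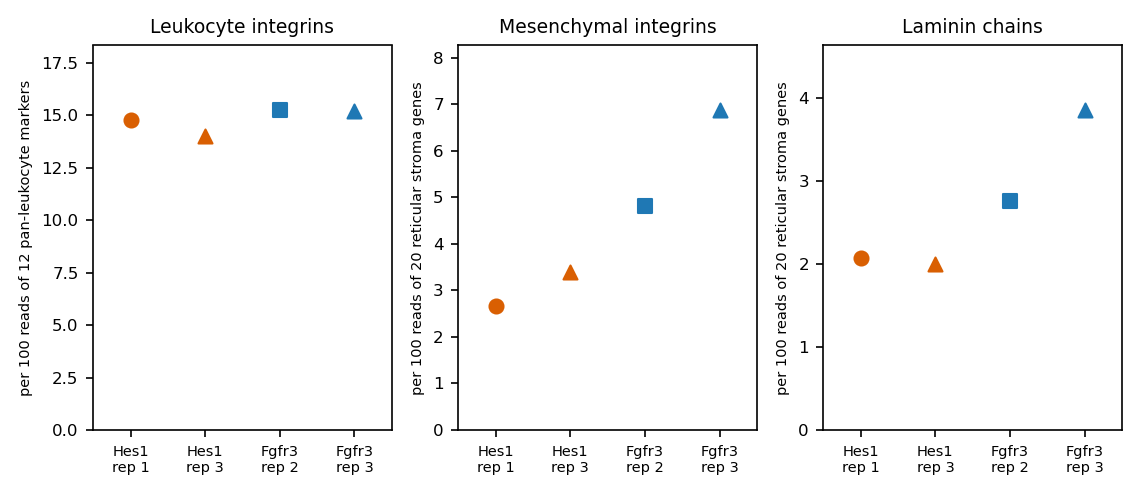
Summed reads of the leukocyte subunits per 100 reads of 12 pan-leukocyte markers, and of the mesenchymal subunits and laminin chains per 100 reads of 20 reticular stroma genes, by library (axes start at 0). The first ratio stays between 14.03 and 15.3; the others range from 2.67 to 6.88 and from 2.01 to 3.86, each lower in both Hes1-derived libraries.

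The 2 platelet subunits did not move together. Itgb3 (β3; chromosome 11, 104608000 to 104670476, plus strand) was lower, at 20.8 and 19.7 CPM against 54.7 and 72.5 CPM. The groups were well apart, and the log2 fold change was −1.65 ± 0.24 (SE, edgeR adjusted p = 0.016), which became −1.61 with an edgeR adjusted p of 0.0502 without Hes1-derived replicate 3. Itga2b, the platelet αIIb chain, had 10.6 and 9.51 CPM against 21.05 and 7.76 CPM and did not pass (−0.52 ± 0.47, edgeR adjusted p = 0.51). Fgfr3-derived replicate 2 was the highest and Fgfr3-derived replicate 3 the lowest, and without Fgfr3-derived replicate 2 the value turned to 0.39.

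The 2 most abundant megakaryocyte markers had the library order of Itga2b and not that of Itgb3. Pf4, the platelet chemokine, had 15.3 and 6.61 CPM against 25.1 and 3.10 CPM, and Ppbp 15.4 and 3.83 CPM against 15.8 and 0.764 CPM. None of the 10 tested megakaryocyte markers passed in edgeR's test in either direction, and 0 had an unadjusted p under 0.05, and their summed level was 67.6 and 31.3 CPM against 70.1 and 15.2 CPM. Of 6 tested osteoclast genes 1 was called, as higher (background 5.24%). The list median was 0.05, with summed levels of 227 and 354 CPM against 307 and 299.6 CPM. Acp5 was higher in Hes1-derived libraries (127 and 173 CPM against 71.5 and 79.5 CPM), Ctsk had 97.2 and 148 CPM against 213 and 202 CPM and did not pass (edgeR adjusted p = 0.093), and Calcr was at 0 in 3 libraries. Atp6v0d2, Ocstamp and Dcstamp overlapped between groups and were lowest in Hes1-derived replicate 1, at 2.42, 0.528 and 0.44 CPM. They were highest in Hes1-derived replicate 3, at 15.1, 8.90 and 5.84 CPM. The part of osteoclasts in the Itgb3 difference was not tested.

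The 4 shared subunits split. Itgb1, the β1 chain of most matrix receptors, had a mean of 125 CPM per kilobase of exon in Hes1-derived libraries, second to Itgb2 at 157, and of 281 in Fgfr3-derived libraries, where it was the most abundant member. It stood at 576 and 448 CPM against 1306 and 986 CPM, without overlap, and was lower with a log2 fold change of −1.16 ± 0.28 (SE, edgeR adjusted p = 0.043). The call ended without Hes1-derived replicate 1 (−1.36, edgeR adjusted p = 0.056), Hes1-derived replicate 3 (−0.99, edgeR adjusted p = 0.19) or Fgfr3-derived replicate 2 (−0.93, edgeR adjusted p = 0.13). Itga4 (chromosome 2, 79255426 to 79333123, plus strand) was higher, at 48.8 and 68.6 CPM against 12.1 and 20.9 CPM. Its log2 fold change of 1.83 ± 0.33 (SE, edgeR adjusted p = 0.022) was the highest of the 36 members, and the call ended without Hes1-derived replicate 3 (1.57, edgeR adjusted p = 0.074) or Fgfr3-derived replicate 2 (1.51, edgeR adjusted p = 0.055).

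Per 1000 pan-leukocyte marker reads, the Itga4 value was 7.18 and 8.70 against 6.42 and 5.09, still without overlap. All 8 B-cell markers were called higher (background 5.24%, median log2 fold change 2.33), with summed levels of 2183 and 1997 CPM against 296 and 524 CPM. Their part in the difference of Itga4 was not tested. Part of the Itga4 exons, 8.04% of their length, overlaps Cerkl on the opposite strand, and the strand setting of the counting is not given in the sources used here. Itga6, the α6 laminin receptor chain of platelets and epithelia, had 14.2 and 15.3 CPM against 5.12 and 9.90 CPM and did not pass (0.97 ± 0.39, edgeR adjusted p = 0.15). It passed without Fgfr3-derived replicate 3 (1.57, edgeR adjusted p = 0.045). Itga2, a collagen receptor chain, had 6 and 12 reads against 49 and 17 reads (−1.77 ± 0.87, edgeR adjusted p = 0.22).

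Of the 10 tested mesenchymal subunits, 6 were lower (background 6.56%) and none was higher, with a median log2 fold change of −1.30. At an unadjusted p under 0.05 there were 7, all with negative log2 fold changes, and DESeq2 and limma-voom also called none higher. The share of all tested genes under that cut is not given, here or for the classes and lists below. Such counts therefore have no background beside them. For 8 of the 10 both Hes1-derived libraries lay below both Fgfr3-derived ones (background 32.1%). Itgb5, the β5 partner of αv (chromosome 16, 33829665 to 33949338, plus strand), differed most, with 112 and 60.1 CPM against 305 and 425 CPM. The groups were far apart, and its log2 fold change of −2.08 ± 0.35 (SE, edgeR adjusted p = 0.019) stayed called without each library in turn. Itgav, the αv chain, had 58.6 and 69.4 CPM against 207 and 137 CPM (−1.43 ± 0.26, edgeR adjusted p = 0.022). Its groups did not overlap either, and Fgfr3-derived replicate 2 was the highest library.

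Itga9, the α9 receptor for tenascin and osteopontin (chromosome 9, 118606690 to 118901003, plus strand), stood at 62.2 and 71.9 CPM against 219 and 166 CPM. It was 2.87-fold lower (−1.52 ± 0.23, edgeR adjusted p = 0.017) and kept its call without each library in turn. Itga5, the fibronectin receptor chain, had 67.05 and 68.2 CPM against 149 and 137 CPM, with replicates close together in both groups (−1.08 ± 0.20, edgeR adjusted p = 0.022). The collagen receptor chain Itga11 (chromosome 9, 62677826 to 62783982, plus strand) had 74.96 and 39.5 CPM against 162 and 151 CPM (−1.45 ± 0.31, edgeR adjusted p = 0.031). Here Hes1-derived replicate 3 was the lowest library. Itga1, the other abundant collagen receptor chain, had 73.2 and 60.7 CPM against 190.4 and 112 CPM (−1.18 ± 0.29, edgeR adjusted p = 0.043).

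The remaining mesenchymal subunits were rare. Itga8, a nephronectin receptor chain, had 9.71 to 19.0 CPM and did not pass (−0.61 ± 0.30, edgeR adjusted p = 0.23). Itga10, the collagen receptor of chondrocytes, had 0.923 and 1.01 CPM against 3.03 and 3.13 CPM, apart but not past the threshold (−1.67 ± 0.55, edgeR adjusted p = 0.0896). The gene Gm42957 shares 33.5% of the Itga10 exon length on the same strand, so the split of reads between them is uncertain. All 8 chondrocyte markers had negative log2 fold changes as well (median −0.51), and none was called. Col2a1 had 523 and 1950.5 CPM against 3161 and 409 CPM, and 7 of the 8 markers overlapped between groups. The other, Sox9, was lower in both Hes1-derived libraries (background 32.1%), at −0.88 ± 0.33 (edgeR adjusted p = 0.13). It alone had an unadjusted p under 0.05. The part of chondrocytes in the Itga10 difference was not tested. Itga3 and Itga7, laminin receptor chains, had at most 3.65 CPM and overlapping groups. Itgb8, which pairs with αv, had 0 and 0 reads against 4 and 3 reads and was not tested. The median of the 10 tested mesenchymal subunits stayed negative with each library left out in turn. It was −1.37 when Hes1-derived replicate 1 was dropped and −1.08 when replicate 3 of that group was. Dropping Fgfr3-derived replicate 2 gave −1.04, and dropping replicate 3 of that group gave −1.46. Which subunits passed depended on the library left out, as did the number of calls over all tested genes.

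Many osteoblast markers and some pericyte markers were lower beside these subunits. Of 8 osteoblast markers 5 were called lower (background 6.56%), and the median of the list was −1.57. Among them were the transcription factor gene Sp7 (−2.24 ± 0.24) and the phosphatase gene Alpl (−1.92 ± 0.34), while Col1a1 did not pass. Phex went the other way, at 28.0 and 24.8 CPM against 19.4 and 8.56 CPM (0.92 ± 0.40, edgeR adjusted p = 0.17). The 8 markers summed to 3103 and 3313 CPM against 8835 and 11769 CPM, with no marker at 0 in any library. Of 7 pericyte and smooth muscle genes 3 were called lower (background 6.56%), led by Abcc9 (−2.19 ± 0.27) and Acta2 (−1.53 ± 0.24). The list median was −0.55, with summed levels of 91.6 and 73.3 CPM against 275 and 203 CPM. Another 3 had positive log2 fold changes, none called: Myh11 (2.01 ± 0.77), Cnn1 (1.35 ± 0.88) and Des (0.39 ± 0.63). For Myh11 and Cnn1 both Hes1-derived libraries lay above both Fgfr3-derived ones. The part of osteoblasts and pericytes in the differences of the mesenchymal subunits and laminin chains was not tested.

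The summed mesenchymal subunits were also lower relative to reticular stroma genes of the same library. Per 100 reads of the 20 reticular stroma genes there were 2.67 and 3.40 reads of mesenchymal subunits against 4.81 and 6.88. Per 1000 such reads Itgb5 had 6.39 and 5.34 against 11.7 and 25.4, Itga11 4.27 and 3.51 against 6.21 and 8.97, and Itga1 4.17 and 5.39 against 7.28 and 6.70. These groups did not overlap, whereas those of Itga5 did (3.82 and 6.06 against 5.71 and 8.19). With all genes scaled to the reticular stroma genes, which moved the median of all tested genes to 0.56 (log2), none of the 10 mesenchymal subunits passed and their median was −0.65. Scaled to eGFP reads, which moved that median to 0.83, none passed and the median was −0.40. Under those scalings 88.1% and 94.5% of all called genes were higher in Hes1-derived libraries, against 44.4% under TMM. The 6 called mesenchymal subunits kept a negative log2 fold change under each scaling, while that of Itga8 turned to 0.18 with eGFP scaling.

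The make-up of the integrin pool, in reads per kilobase within each library and so independent of the scaling between libraries, differed with these levels. Itgam made up 36.4% and 48.1% of all α subunit reads per kilobase against 8.98% and 18.5%. Itga11 took 13.3% and 6.19% against 21.6% and 20.9%, Itga9 7.35% and 7.52% against 19.4% and 15.4%, and Itga5 12.4% and 11.1% against 20.7% and 19.9%. Among β subunits Itgb2 took 40.4% and 43.3% against 9.13% and 18.2%, and Itgb1 35.4% and 30.9% against 67.1% and 47.8%. The leukocyte β2 chain thus outnumbered β1 in both Hes1-derived libraries and stood below it in both Fgfr3-derived ones. With α subunits of the leukocyte and αv families left out, Itga5 took 28.1% and 32.4% against 28.6% and 30.5% of the α1 to α11 pool, with overlapping groups. Itga1 and Itga11 overlapped as well, Itga11 at 30.2% and 18.01% against 29.8% and 32.2%. The separation of Itga11 between groups among all α subunits was thus not kept in this pool. Itga9 stayed lower without overlap, at 16.7% and 21.9% against 26.8% and 23.7%, while Itga4 took 7.23% and 11.5% against 0.816% and 1.64%.

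**Figure D4:**
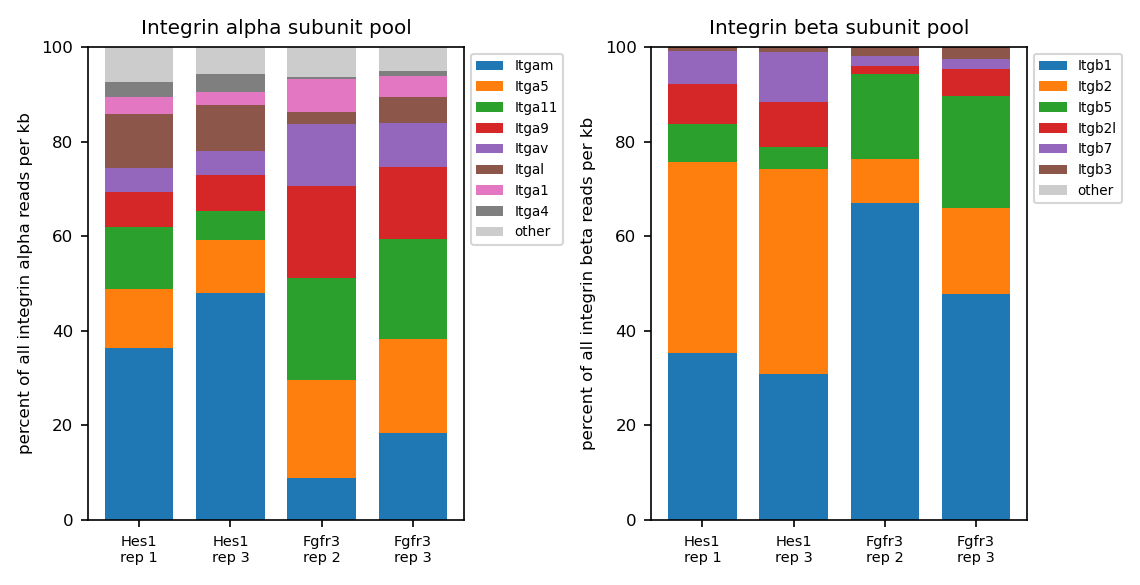
Share of each α subunit (left) and β subunit (right) in the summed reads per kilobase of its pool, by library, in percent. Itgam and Itgb2 take the larger shares in the Hes1-derived libraries, and Itga11, Itga9, Itgb1 and Itgb5 in the Fgfr3-derived ones.

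Of the 10 tested laminin chains, 3 were lower and none higher (background 6.56% lower). At an unadjusted p under 0.05 there were 4 chains, all with negative log2 fold changes, and neither DESeq2 nor limma-voom called any higher. Their median log2 fold change was −0.99, and 8 of the 10 had both Hes1-derived libraries below both Fgfr3-derived ones (background 32.1%). Lama4, the α4 chain (chromosome 10, 38965515 to 39110188, plus strand), had 51.7 and 37.5 CPM against 170 and 107 CPM. It was the main α chain, with 73.8% to 85.4% of α chain reads per kilobase, and was lower without overlap (−1.63 ± 0.29, edgeR adjusted p = 0.022). Lamb2, the β2 chain (chromosome 9, 108479736 to 108490530, plus strand), had 62.3 and 37.8 CPM against 132 and 178 CPM (−1.63 ± 0.30, edgeR adjusted p = 0.022). Lamb1, the β1 chain, had 128 and 74.4 CPM against 242 and 226 CPM (−1.21 ± 0.29, edgeR adjusted p = 0.039).

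Lamc1, the γ1 chain that most laminin trimers contain, had 103 and 64.4 CPM against 143 and 112 CPM and did not pass (−0.61 ± 0.28, edgeR adjusted p = 0.19). The ratio of Lama4 to Lamc1 per kilobase was 0.344 and 0.400 in Hes1-derived against 0.815 and 0.653 in Fgfr3-derived libraries, and the β chains together stood at 1.86 and 1.76 against 2.67 and 3.84 per γ1. Relative to the reticular stroma genes Lamc1 overlapped between groups (5.86 and 5.72 against 5.46 and 6.69 reads per 1000), whereas Lama4 did not (2.94 and 3.34 against 6.49 and 6.37). Lama1, Lama2 and Lama5 had 1.25 to 16.3 CPM, with both Hes1-derived libraries lower in each and adjusted p-values of 0.20 to 0.25. Lama3 and Lamb3, chains of an epithelial laminin, had at most 1.97 CPM in any library and overlapping groups. The 3 laminin calls became none after scaling to the reticular stroma genes or to eGFP, where all tested genes gave 84 and 19 lower calls. The median of the 10 chains was −0.70 when Hes1-derived replicate 3 was dropped and −1.56 when replicate 1 of that group was. Dropping Fgfr3-derived replicate 2 gave −0.92, and dropping replicate 3 of that group gave −1.23. Which chains passed depended on the library left out, as did the number of calls over all tested genes.

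The remaining rows were low or level. Itgb4, the hemidesmosome β4 chain of epithelia, had 8 and 55 reads against 13 and 11 reads, so that a single library, Hes1-derived replicate 3, stood apart (1.46 ± 0.97, edgeR adjusted p = 0.37). Itgb6, an epithelial partner of αv, had at most 7 reads in a library. Itgb1bp1, an inhibitor of integrin activation that binds the β1 tail, had 34.5 and 33.3 CPM against 27.4 and 32.6 CPM (0.18 ± 0.23, edgeR adjusted p = 0.66). Itgb3bp, a centromere protein, had 2.90 and 7.45 CPM against 7.13 and 4.85 CPM and did not pass. Itgb1bp2 and Itgb1bp3 had at most 15 reads in a library.

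Known partners of the integrins were read from 4 lists. Of 29 tested genes of the adhesion complex, 9 were lower and none higher (background 6.56% lower), with a median log2 fold change of −0.51. At an unadjusted p under 0.05 there were 17, and DESeq2 called 13 lower and 1 higher. Over all 14330 tested genes DESeq2 called 1557 lower and 1429 higher, the background for its counts in the 4 lists. Kank1, which links talin to the cell cortex, had 2.02 and 2.22 CPM against 16.1 and 20.8 CPM (−3.12 ± 0.35, edgeR adjusted p = 0.013). Fermt2, the kindlin of mesenchymal cells, had 117 and 84.4 CPM against 325 and 256 CPM (−1.53 ± 0.25, edgeR adjusted p = 0.019). The scaffold gene Bcar1 showed −1.59 ± 0.20 and the endocytic adaptor Dab2 −1.73 ± 0.25, both called. Talin 1 (Tln1) overlapped between groups, at 267 and 246 CPM against 233 and 255 CPM.

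Of the 9 adaptors of blood-cell integrins, 4 were higher and none lower (background 5.24% higher), with a median log2 fold change of 1.01 and a single negative value, that of Skap2 (−0.07). At an unadjusted p under 0.05 there were 8, all with positive values, and DESeq2 called 6 higher and none lower. Ptk2b, a focal adhesion kinase relative of leukocytes, had 93.5 and 102.6 CPM against 22.8 and 37.6 CPM (1.70 ± 0.28, edgeR adjusted p = 0.019). Lpxn (1.95 ± 0.32), Cytip (1.78 ± 0.29) and Apbb1ip (1.37 ± 0.34) were also called, and Cytip stands in the pan-leukocyte list too. Fermt3, the kindlin of blood cells, had 363 and 378 CPM against 136 and 230.1 CPM and did not pass (1.01 ± 0.29, edgeR adjusted p = 0.062).

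Of 15 tested basement membrane partners 5 were lower and none higher (background 6.56% lower), with a median of −0.92. At an unadjusted p under 0.05 there were 9, and DESeq2 called 6 lower and none higher. The collagen IV chain genes Col4a1 (486 and 279 CPM against 1087 and 1117 CPM) and Col4a2 (159 and 86.3 CPM against 351 and 479 CPM) were lower, at −1.53 ± 0.32 and −1.76 ± 0.34. Col18a1 (−2.22 ± 0.22) and Npnt (−2.18 ± 0.32), the gene of nephronectin, a ligand of α8, were lower too. Col4a5 had 0 reads in both Hes1-derived libraries and 21 and 16 reads in the Fgfr3-derived ones, at least 5.69-fold lower with a floor of 3 counts per library. Nid2, a nidogen that joins laminin to collagen IV, overlapped between groups (212 and 138 CPM against 197 and 139 CPM).

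Of 24 tested integrin ligands 9 were lower and 2 higher (background 6.56% lower and 5.24% higher), with a median of −0.67. At an unadjusted p under 0.05 there were 15, and DESeq2 called 12 lower and 2 higher. Spp1, the αv and α9 ligand osteopontin, had the smallest p (−3.72 ± 0.36, edgeR adjusted p = 0.013), followed by Jam3 (−1.54 ± 0.26), Postn (−1.36 ± 0.24) and Ltbp1 (−1.60 ± 0.29), which holds latent TGF-beta. Fibronectin (Fn1) had 265 and 277 CPM against 598 and 605 CPM and was lower as well (−1.15 ± 0.22). The 2 higher genes were Icam2 (33.0 and 31.5 CPM against 5.87 and 12.04 CPM) and Icam4 (55.6 and 30.7 CPM against 10.1 and 16.5 CPM), ligands of the β2 integrins that endothelial, blood and red cells carry. Vcam1, the ligand of α4 with β1, overlapped (1290.4 and 964 CPM against 1729 and 859 CPM), so the α4 receptor chain was higher without a called change in this ligand (−0.20 ± 0.38, edgeR adjusted p = 0.78). Endothelial markers had a median log2 fold change of 1.07, with 1 of 9 called higher (Pecam1, which platelets and leukocytes also express). Erythroid markers had a median of 1.99, with 6 of 7 called higher (background 5.24% for both lists).

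The partner counts depended on the libraries and the scaling, as did those of all tested genes. With each library left out in turn, the median ran from −0.61 to −0.51 in the adhesion complex. It ran from −1.46 to −0.59 among basement membrane partners, 0.70 to 1.58 among adaptors and −0.77 to −0.47 among ligands. The calls of Icam2 and Icam4 were among those that ended without Hes1-derived replicate 1 or Fgfr3-derived replicate 2. Scaled to the reticular stroma genes, 1 gene each of the adhesion complex, basement membrane and ligand lists was lower. In that fit 4 adaptors and 2 ligands were higher, where all tested genes gave 84 lower and 622 higher calls. Scaled to eGFP, none of the adhesion complex and basement membrane genes was lower, and Spp1 alone was lower among ligands. Icam2 and 3 adaptors were higher, where all tested genes gave 19 lower and 324 higher calls. The adhesion complex median turned to 0.04 and 0.31 under these scalings, and that of the ligands to 0.05 with eGFP scaling.

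**Figure D5:**
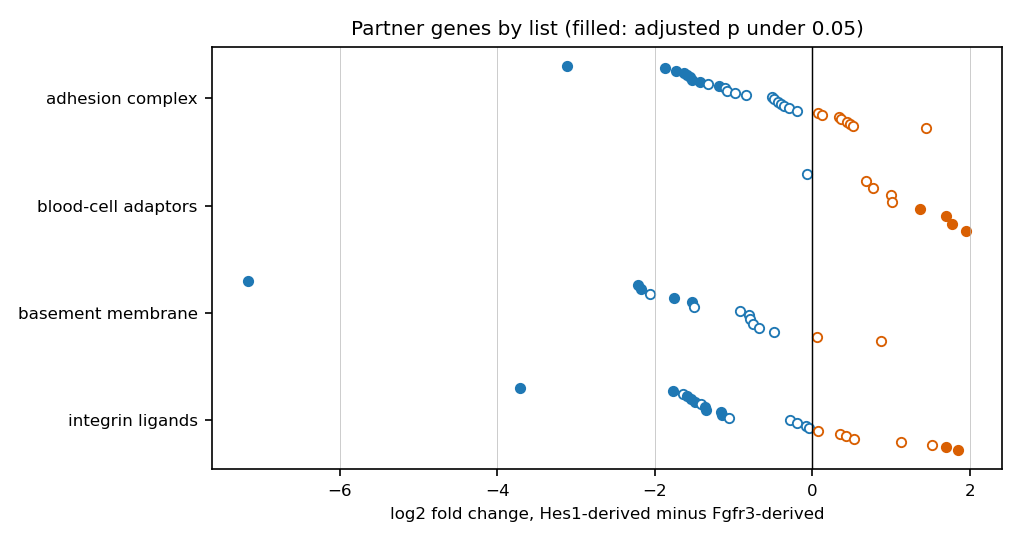
Log2 fold change (Hes1-derived minus Fgfr3-derived) of each tested gene in 4 lists of integrin partners; filled points passed an adjusted p of 0.05 (edgeR). The blood-cell adaptors called are all positive and the adhesion complex and basement membrane genes called all negative; the leftmost point is Col4a5, whose fitted value rests on 0 reads in both Hes1-derived libraries and is no bound.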

How the data were processed

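Bulk RNA sequencing counts of 4 mouse libraries, 2 Hes1-derived and 2 Fgfr3-derived, were analysed. Per the labels, a SMARTer kit served for amplification and Nextera XT for library preparation; the extraction text also speaks of a 10X single-cell loading. Among the tools in the submitters' processing notes are HTSeq, DESeq2, Cuffdiff, Cufflinks, Bowtie2 2.2.1, TopHat2 2.0.13 and FastQC, beside the build mm10; the annotation and strand setting are not given in the sources used here. The deposited counts are whole reads per gene symbol. The deposited depth-normalized signal is the count times 1 constant per library, and the deposited log2 values are regularized log2 counts per the file names; the former served an alternative test (log2 with a pseudocount of 1) and the latter were not used in a test.

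The 2 groups were compared by edgeR 4.0.16 (R 4.3.3, quasi-likelihood F test, TMM, robust dispersions, minimum count 10, 2 residual degrees of freedom), with p-values adjusted after Benjamini and Hochberg over 14330 genes, at a threshold of 0.05. A positive log2 fold change means higher in Hes1-derived libraries, and its SE was its size over the root of the F statistic. An exact permutation of 2 against 2 libraries cannot go below p = 0.333, so class sums and ratios carry no test. Exon lengths and positions came from GENCODE M21 (GRCm38); lengths are unions of all annotated exons, so levels per kilobase are lower for genes with long rare exons. The alternatives were RLE, upper-quartile, library-total, reticular stroma (20 genes) and eGFP scaling, DESeq2 1.42.0, limma-voom and limma-trend (limma 3.58.1), both other filters, non-robust dispersions and leaving out each library. The edgeR, DESeq2 and voom fits were also run on simulated data, whose outcome is not given here. The simulation had no difference in cell mixture between groups, so it does not bear on the choice of scaling.

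Members and lists were chosen with earlier results of these data known. The values of 1 member are not reported here; it stays in the counts and medians. Named are members past the threshold and the 2 most abundant of each class. Also named are up to 4 partner genes per list and direction with the smallest p, and the 2 most abundant members of lists of other cells. Tln1, Fermt3, Fn1, Vcam1, Nid2, Col4a5, Skap2, Sp7, Atp6v0d2, Ocstamp, Dcstamp and Calcr were chosen after their values were seen. Phex, Myh11, Cnn1 and Des were so chosen as well. Neutrophil, macrophage, T and NK cell, Schwann cell and skeletal muscle lists were computed too. The background for a higher call by edgeR is 5.24% of tested genes. The background at an unadjusted p under 0.05 is not given, so those counts show neither an excess over all genes nor its absence. Summed neutrophil markers had 25700.4 and 30128 CPM against 8463 and 20872 CPM, led by Ngp and Ltf, with 0 of 9 called by edgeR (3 at an unadjusted p under 0.05). Of the macrophage list 2 of 9 were higher (Vcam1 in it is also stromal; Csf1r 1.21), of the T and NK list 0 of 7 (Nkg7, Cd3d; 2 at an unadjusted p under 0.05), of Schwann cell genes 1 of 4 higher (Mbp; S100b not) and of muscle genes 0 of 2 (Mylpf, Tnnt3; 1 at an unadjusted p under 0.05).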

Additional observations from a re-analysis of the deposited data

How the results depend on the processing

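Over 15 alternatives none of the 13 called members changed sign, and none kept its call in all 15: Itgb5 and Itga9 lost theirs under reticular stroma and eGFP scaling alone, and all 11 lower calls were lost under both. With reticular stroma scaling 0 mesenchymal subunits, 0 shared subunits, 0 leukocyte or platelet subunits and 0 laminin chains were lower, as with eGFP scaling (0 in each of the 4 classes); all tested genes gave 84 and 19 lower calls, and eGFP scaling gave 324 higher calls. DESeq2 called 1557 genes lower and 1429 higher, against 940 and 751 by edgeR. Higher leukocyte or platelet subunits numbered 1, but 2 with upper-quartile scaling, library totals, limma-trend, no filter or at least 50 counts, 3 with limma-voom and 4 with DESeq2. Without Itgb3 in that class 0 were lower, and with the shared subunits and Itgb3 counted as mesenchymal 1 was higher.

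Leaving out each library in turn gave 2 to 6 lower mesenchymal subunits, 0 to 4 lower laminin chains, 0 to 1 lower and 0 to 2 higher shared subunits, 0 to 1 lower and 0 to 5 higher leukocyte or platelet subunits, and 181 to 998 lower and 183 to 1225 higher genes in all. With 1 library left in a group, that library is assumed to vary like the other group.

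Of the 36 tested members, 9 changed sign somewhere, none of them called. Under reticular stroma scaling the log2 fold change became 0.19 for Itga2b, 0.23 for Itga3, 0.55 for Itgb3bp and 0.44 for Lama3. Under eGFP scaling it became 0.41 for Itga2b, 0.45 for Itga3, 0.18 for Itga8, 0.88 for Itgb3bp, 0.61 for Lama3 and 0.15 for Lamc1. Itga7 became −0.21 with limma-voom and −0.14 with limma-trend. With each library left out in turn, the log2 fold change ran from −1.02 to 0.39 for Itga2b, −0.71 to 0.15 for Itga3, −1.56 to 1.05 for Itga7 (−0.46 without Fgfr3-derived replicate 2), −1.04 to 0.31 for Itgb3bp, −0.40 to 2.24 for Itgb4 and −0.77 to 0.41 for Lama3. For Lamb3 it ran from −0.54 to 6.76, the latter fitted against 0 reads and so no bound. The cause of these shifts was not tested. No paired analysis was possible because the groups share only replicate number 3. The precision of every value is limited by the number of libraries, 2 a group.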

Other observations

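The proportions of partner chains were compared within each library. The β1 chain stood at 2.92 and 2.57 reads per read of the summed α1 to α11 chains (per kilobase) in Hes1-derived replicates 1 and 3, against 3.02 and 2.65 in the Fgfr3-derived ones. The β2 chain stood at 2.97 and 2.10 per read of its α partners Itgal, Itgam, Itgax and Itgad, against 2.52 and 2.67. Both ratios overlapped between groups, whereas Itgb3 per Itga2b was 1.81 and 1.91 against 2.40 and 8.64. Mesenchymal subunits had 0.467 and 0.347 reads per leukocyte subunit read against 4.37 and 1.85. These ratios were chosen after the values were seen and carry no test.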
